A study of Mus musculus with 9 samples.

Results

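The intervals described here are those whose midpoint lies inside a very long gene, defined as a protein-coding gene with a span of 400 kb or more in RefSeq (GRCm38.p6, the build also called mm10), on the autosomes other than chromosome 11. Of the 19056 protein-coding genes on these 18 autosomes, 325 are that long. They hold 1751 and 2179 intervals of MTX libraries 1 and 2, 3653 and 1452 intervals of control libraries 1 and 2, and 1995 intervals of the IgG library. Together these are 11030 of the 142062 intervals of the 5 lists, and 92 of them lie in more than 1 long gene because entries overlap. The genes were chosen by span alone, and none of their read counts entered the rule, though it was set with earlier results of these data known.

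The assay was ChIP-seq, or chromatin immunoprecipitation followed by sequencing: an antibody recovers a protein with the DNA attached to it, and that DNA is sequenced. Sv129 mouse embryonic stem cells were grown with leukemia inhibitory factor and serum, and the MTX cells, whose genotype label reads folate deficiency, received 0.12 µM MTX for 24 h, while control cells carry the label WT. The groups used are 2 KDM6A libraries of MTX cells, 2 KDM6A libraries of control cells and 1 IgG library of MTX cells, in which a nonspecific antibody measures background. The study also has 4 inputs, which are not analysed here as lists of their own. The labels do not state if the 2 libraries of a group are separate cultures, and p-values then measure only the spread between libraries, which may be technical.

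KDM6A, also called UTX, is a histone demethylase that removes methyl groups from lysine 27 of histone H3, a mark of repressed chromatin, and it works with the KMT2C and KMT2D methyltransferases at enhancers. Very long genes consist almost wholly of introns, and many of them encode adhesion molecules, receptors, channels and scaffolds of neurons. Several coincide with common fragile sites, where replication is slow to finish and DNA breaks under stress. Stem cells transcribe the long genes of cell maintenance, and most neuronal ones only weakly.

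Intervals overlapped the starts of a small share of long genes, and of a small share of other genes too. For scale, intervals covered 28.3 and 36.0 kb per Mb of long genes in MTX libraries 1 and 2. They covered 48.7 and 25.8 kb per Mb in control libraries 1 and 2 and 36.1 in the IgG library. RefSeq promoter windows, 250 bases before to 50 after a start, were given for 246 of the 325 long genes, and at least 1 window was overlapped in 8 of 246 genes in each of MTX libraries 1 and 2, in 19 in control library 1, in 4 in control library 2 and in 6 in the IgG library. Those are 3.25%, 3.25%, 7.72%, 1.63% and 2.44% of the long genes, against 7.05%, 2.68%, 10.2%, 2.11% and 5.03% of 14940 other genes. For long genes the exact (Clopper-Pearson) 95% intervals run from 1.41% to 6.31% in both MTX libraries, from 4.71% to 11.8% in control library 1, from 0.445% to 4.11% in control library 2 and from 0.900% to 5.23% in the IgG library, and they cover counting error only. The share of other genes lay above the interval of the long genes in MTX library 1 and inside it in the remaining 4 libraries. No long gene had a window overlapped in 3 or 4 KDM6A libraries, and 7 had one in 2 of them: Sox6, Zbtb20, Ptprg, Fstl5, Agbl4, Rad51b and Zfp993.

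The windows of 4 of those 7 genes are printed below from RefSeq (GRCm38.p6), 5′ to 3′ on the strand of the gene, because their intervals had deposited folds above 1.3 in both KDM6A libraries, and that of Rbfox1 is added as a start without any interval. Capitals mark each CG, the dinucleotide that carries DNA methylation, which reads the same on both strands. The windows lie at chr7:115801560-115801859 (Sox6, minus strand), chr16:43247034-43247333 (Zbtb20, plus strand), chr14:11553303-11553602 (Ptprg, plus strand), chr3:76074311-76074610 (Fstl5, plus strand) and chr16:5884543-5884842 (Rbfox1, plus strand).
Sox6: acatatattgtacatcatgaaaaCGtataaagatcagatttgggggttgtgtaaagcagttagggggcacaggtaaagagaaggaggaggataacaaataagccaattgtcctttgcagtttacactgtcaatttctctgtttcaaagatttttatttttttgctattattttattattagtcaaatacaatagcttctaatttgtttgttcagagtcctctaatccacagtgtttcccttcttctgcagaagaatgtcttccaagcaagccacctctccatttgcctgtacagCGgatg
Zbtb20: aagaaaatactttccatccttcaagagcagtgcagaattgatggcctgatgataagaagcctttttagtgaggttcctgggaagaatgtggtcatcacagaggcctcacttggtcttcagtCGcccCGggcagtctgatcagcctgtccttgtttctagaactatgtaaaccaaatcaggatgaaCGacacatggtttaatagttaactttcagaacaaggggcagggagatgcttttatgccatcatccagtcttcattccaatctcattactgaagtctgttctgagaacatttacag
Ptprg: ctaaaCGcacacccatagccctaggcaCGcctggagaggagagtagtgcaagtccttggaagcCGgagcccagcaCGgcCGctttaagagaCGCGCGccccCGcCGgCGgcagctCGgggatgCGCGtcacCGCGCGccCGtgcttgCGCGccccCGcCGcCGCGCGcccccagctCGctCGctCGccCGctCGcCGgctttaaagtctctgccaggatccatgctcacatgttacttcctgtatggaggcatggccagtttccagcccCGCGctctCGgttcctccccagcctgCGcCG
Fstl5: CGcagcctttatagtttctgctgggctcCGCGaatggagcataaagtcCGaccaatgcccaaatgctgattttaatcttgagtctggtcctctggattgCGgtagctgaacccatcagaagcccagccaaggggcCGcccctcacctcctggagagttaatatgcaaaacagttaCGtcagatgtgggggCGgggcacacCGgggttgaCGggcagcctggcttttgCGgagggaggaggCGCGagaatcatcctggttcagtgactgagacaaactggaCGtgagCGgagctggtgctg
Rbfox1: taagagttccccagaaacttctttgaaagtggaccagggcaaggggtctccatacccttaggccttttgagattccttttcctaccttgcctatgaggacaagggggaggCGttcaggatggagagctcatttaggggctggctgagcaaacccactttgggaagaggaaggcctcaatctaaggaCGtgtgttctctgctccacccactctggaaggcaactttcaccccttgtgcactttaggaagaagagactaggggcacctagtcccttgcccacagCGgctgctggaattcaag

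These starts differ widely in CG. The Ptprg window holds 36 CG, that of Fstl5 15, those of Zbtb20 and Rbfox1 3 each, and that of Sox6 2. The median was 12 in windows of long genes and 13 in those of other genes, and 10 or more CG stood in 57.6% and 57.4% of windows. Of all windows, 95.5% held at least 1. The windows of Sox6 and Zbtb20 belong to starts inside the span of the gene, so they are not its outermost starts.

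Sox6, a transcription factor of muscle, cartilage and red cell development, had its window overlapped in both MTX libraries and in no other list. The interval of MTX library 1 (chr7:115801601-115804600) held 101 immunoprecipitated reads and 63 background reads, with a deposited fold of 1.72. That of MTX library 2 (chr7:115799201-115802800) held 136 and 89 reads, with a fold of 1.71. Within the whole gene (chr7:115470872-116040776) MTX libraries 1 and 2 had 16 and 23 intervals, against 21 and 13 in control libraries 1 and 2 and 11 in the IgG library, so both groups had many intervals elsewhere in it.

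Zbtb20, a zinc finger repressor, had its window overlapped in both control libraries and also in the IgG library. The control intervals held 115 immunoprecipitated and 87 background reads in library 1 (fold 1.75) and 130 and 75 reads in library 2 (fold 1.81). The IgG interval there held 260 and 146 reads (fold 1.85), as high as the KDM6A ones. Ptprg, a receptor tyrosine phosphatase, was overlapped in MTX library 2 (74 immunoprecipitated and 50 background reads, fold 1.66) and control library 1 (142 and 124 reads, fold 1.51). Fstl5, a follistatin-like secreted protein, was overlapped in the same 2 libraries, with folds of 1.33 and 2.15.

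In the full lists, KDM6A intervals were less dense in long genes than over the rest of these autosomes, and less dense still relative to shorter genes. Long genes held 7.74 and 9.64 intervals per Mb in MTX libraries 1 and 2, 16.2 and 6.42 in control libraries 1 and 2, and 8.82 in the IgG library. The rest of the sequence held 8.78, 10.2, 17.3 and 7.07 intervals per Mb in the 4 KDM6A libraries in the same order, and 8.30 in the IgG library. Every KDM6A list was thinner in long genes than in the rest. The IgG list, which is 1 library, was denser there, though not with chromosome 11 included (ratio 0.985).

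As a ratio, the density in long genes was 0.882, 0.940, 0.935 and 0.908 of that in the rest in MTX libraries 1 and 2 and control libraries 1 and 2, a mean of 0.916 ± 0.0270 (SD, n = 4), and 1.06 in the IgG library. The exact sign-flip test over the 4 KDM6A libraries gave p = 0.13 (two-sided), the smallest it can give, and 0.13 after Benjamini-Hochberg adjustment over 9 such comparisons. The ratio depended on which intervals were kept. It was 0.999 with intervals at a deposited adjusted p under 0.05. The mean was 1.02 ± 0.113 (SD, n = 4) when each list was reduced to its 21228 best intervals by deposited p, the length of the shortest list. That mean lies above the rest by less than its SD (exact sign-flip p = 0.875). Control library 2, itself the shortest list, kept its 0.908.

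The contrast was larger against other genes. Genes of 100 to 400 kb held 12.1 and 14.1 intervals per Mb in MTX libraries 1 and 2, 22.5 and 10.6 in control libraries 1 and 2 and 10.6 in the IgG library. Sequence outside genes held 7.05 and 8.68 in MTX, 14.5 and 5.77 in control and 7.27 in IgG. The density in long genes was thus 0.687 ± 0.0402 of that in all other genes (SD, n = 4 KDM6A libraries), against 0.859 in the IgG library, and 1.11 ± 0.00743 of that outside genes, against 1.21 in the IgG library. Each held in 4 of 4 KDM6A libraries, with an exact sign-flip p of 0.13, again the smallest possible.

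**Figure D1:**
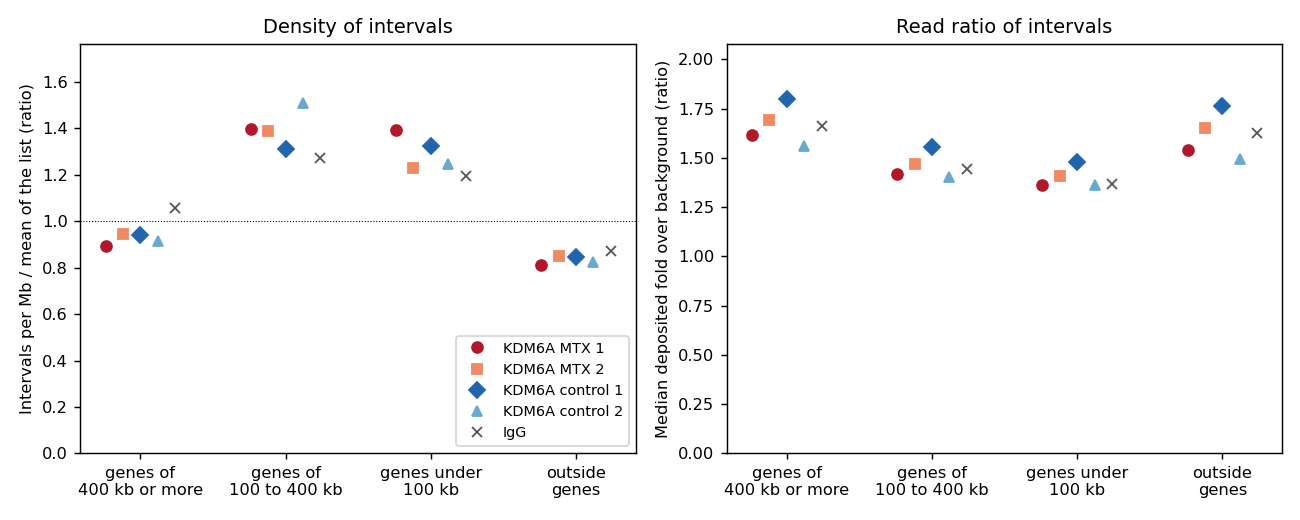
Density of intervals (left, intervals per Mb divided by the mean of the same list over the 18 autosomes, 1 at the dotted line) and median deposited fold of intervals (right, ratio) by gene span class, with 1 point per library and no error bars. In these full lists long genes lie under 1 in the 4 KDM6A libraries and above 1 in the IgG library, and their median fold lies above that of shorter genes in every library.

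MTX and control libraries did not separate in this measure. On the log2 scale, long genes minus the rest came to -0.18 and -0.09 in MTX libraries 1 and 2, against -0.10 and -0.14 in control libraries 1 and 2. The values of the groups overlap, with a difference of MTX minus control of -0.02 (exact permutation test of 2 against 2, two-sided, p = 1, where the smallest possible p is 0.33).

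Intervals in long genes had a higher ratio of immunoprecipitated to background reads than other intervals. Members of MTX libraries 1 and 2 held 211444 and 273979 immunoprecipitated reads against 145727 and 187493 background reads. Members of control libraries 1 and 2 held 303121 and 193559 against 233709 and 133412, and those of the IgG library 277105 against 179824. Scaled by the depth constant of each deposited list, the pooled fold of members was 1.56 and 1.64 in MTX libraries 1 and 2, 1.72 and 1.51 in control libraries 1 and 2 and 1.60 in the IgG library. In the rest it was 1.38 and 1.46 in MTX, 1.54 and 1.35 in control and 1.43 in IgG. The rest is mixed, and sequence outside genes lay nearer to members than other genes did. Outside genes the pooled fold was 1.42 and 1.52 in MTX, 1.62 and 1.37 in control and 1.49 in IgG. The log2 difference of members was 0.117 ± 0.0297 against sequence outside genes and 0.221 ± 0.0286 against all other genes (SD, n = 4 KDM6A libraries). In IgG these were 0.0987 and 0.245.

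Long genes were higher in all 5 libraries, and IgG lay inside the range of the KDM6A libraries. The IgG and MTX library 1 folds may share their background reads, since 3 of the 3 identical members of both lists had equal background counts. The log2 difference between members and the rest was 0.16 ± 0.0095 (SD, n = 4 KDM6A libraries), against 0.16 in the IgG library, and the exact sign-flip p was 0.13. It was 0.174 and 0.167 in MTX libraries 1 and 2, against 0.152 and 0.160 in control libraries 1 and 2. The groups thus did not overlap here (difference 0.0146, exact permutation p = 0.33, the smallest possible). Against all other genes in place of the rest they did overlap (exact permutation p = 0.67). The median interval held 113 immunoprecipitated and 76 background reads in members of MTX library 1, against 113 and 84 in the rest. In control library 1 it held 77 and 58 in members, against 78 and 64 in the rest. In these libraries the immunoprecipitated medians were the same or within 1 read, and the background median was lower in members. The same held in MTX library 2 (117 and 79 in members, against 118 and 87), control library 2 (125 and 85, against 126 and 92) and IgG (128 and 83, against 128 and 89). Outside genes the background medians were close to those of members, at 79 and 80 in MTX, 59 and 88 in control and 83 in IgG. In all other genes they were higher, at 90 and 97 in MTX, 72 and 97.5 in control and 98 in IgG.

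Interval width did not set members apart. Their median widths were 3400 and 3600 bp in MTX libraries 1 and 2, 2800 and 3800 bp in control libraries 1 and 2 and 3800 bp in the IgG library, and the medians of the rest were identical in every library. A deposited adjusted p under 0.05 was met by 91.3% and 94.8% of members in MTX libraries 1 and 2, 92.9% and 91.0% in control libraries 1 and 2 and 93.9% in the IgG library. Over all intervals of these autosomes the shares were 82.1%, 88.3%, 87.1%, 84.4% and 86.9% in the same order. Outside genes they were nearer to those of members, at 85.2%, 91.5%, 90.4%, 87.0% and 90.3%. In all other genes they were 76.7%, 82.9%, 81.8%, 79.9% and 80.3%. Of members, 18.6% and 18.7% in MTX libraries 1 and 2 and 14.6% and 21.1% in control libraries 1 and 2 overlapped an IgG interval, against 20.9%, 18.9%, 15.6% and 20.7% of the rest.

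Long genes differed widely from each other. Density per gene is given below relative to the mean density of the same list over the 18 autosomes, so that lists of different length can be averaged. Over the 325 genes the mean of the 4 KDM6A libraries had quartiles of 0.383, 0.703 and 1.33, from 0 to 5.69. It was above 1 in 112 genes, above 2 in 34 and under 0.5 in 117. In each library the 33 genes with the most intervals held 38.6% and 35.2% of the members of MTX libraries 1 and 2, 30.6% and 39.6% of those of control libraries 1 and 2 and 40.1% of those of the IgG library.

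Of the long genes, 250 had an interval in all 4 KDM6A libraries and 236 in all 5 lists. No interval was listed in 35 and 27 genes in MTX libraries 1 and 2, in 8 and 52 in control libraries 1 and 2 and in 44 in the IgG library. Control library 1, the longest list, was thus the one with the fewest empty genes. The genes were in much the same order in every list: Spearman's rho across the 325 genes was 0.691 to 0.773 between KDM6A libraries and 0.631 to 0.758 between a KDM6A library and IgG. These are descriptions across genes, which are not independent replicates, and the lists share the mappable sequence of the genome. IgG and KDM6A means had a Pearson's r of 0.864.

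Syt1, the calcium sensor of synaptic vesicle release (chr10:108497650-109010980), was the densest. It held 21 and 30 intervals in MTX libraries 1 and 2, 30 and 32 in control libraries 1 and 2 and 31 in the IgG library. These are 40.9 and 58.4 per Mb in MTX, 58.4 and 62.3 in control and 60.4 in IgG, so IgG was as dense as the KDM6A libraries. Its relative density was 5.69 ± 2.34 (SD, n = 4 KDM6A libraries), against 7.23 in IgG. Its intervals held 2799 immunoprecipitated and 2148 background reads in MTX library 1, and 5186 and 3803 in control library 2. Its pooled fold of 1.40 and 1.66 in MTX, 1.64 and 1.42 in control and 1.49 in IgG was lower than that of all members in 3 of the 4 KDM6A libraries and in IgG. Without intervals that overlap IgG its relative density was 2.57.

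Lrrc7, which encodes the postsynaptic scaffold densin (chr3:158067186-158561983), came next. It had 22 and 27 intervals in MTX, 32 and 22 in control and 33 in IgG, with a relative density of 5.15 ± 1.06 (SD, n = 4 KDM6A libraries) against 7.99 in IgG. In Exoc6b, a subunit of the exocyst that tethers vesicles to the plasma membrane (chr6:84618486-85070258), IgG lay below the KDM6A mean. It had 15 and 23 intervals in MTX, 26 and 21 in control and 13 in IgG, the lowest of the 5 counts. Its relative density was 4.70 ± 1.46 against 3.45 in IgG, which is within that SD. Relative to list length, control library 1 lay below IgG, at 3.35. The flanks of Exoc6b, 500 kb on each side, had a relative density of only 0.579, whereas those of Syt1 and Lrrc7 had 2.67 and 2.74.

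Dpp10, an auxiliary subunit of potassium channels (chr1:123332138-124845815), held more intervals than any other long gene in MTX library 1, control library 1 and IgG. It had 76 and 45 intervals in MTX, 86 and 30 in control and 77 in IgG. Relative to the length of each list these are 5.79 and 2.92 in MTX, 3.31 and 2.83 in control and 6.09 in IgG. MTX library 1 and IgG were high, and the other MTX library lay between the control libraries. Its flanks were denser still, at 5.66 against 3.71 ± 1.40 inside (SD, n = 4 KDM6A libraries). Pde4d, a phosphodiesterase that degrades cAMP (chr13:108654177-109955969), was the most even of the dense genes, with 51 and 54 intervals in MTX, 76 and 35 in control and 46 in IgG, and a relative density of 3.96 ± 0.465 against 4.23 in IgG.

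The remaining 5 of the 10 densest were Lrba, a vesicle trafficking protein (4.36 ± 1.46), Ptprk, a receptor tyrosine phosphatase (4.09 ± 0.666), Pcca, a subunit of mitochondrial propionyl-CoA carboxylase (4.02 ± 1.91), Gphn, the scaffold gephyrin of inhibitory synapses (3.70 ± 1.21) and Rabgap1l, a Rab GTPase-activating protein (3.59 ± 1.11; SD, n = 4 KDM6A libraries each). Neighbours in this order lie within each other's SD. The densest 10 thus include genes of synapses and genes used by most cells.

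At the other end, 4 long genes had no interval in any of the 5 lists: Atp8a2, a phospholipid flippase, Myo16, an unconventional myosin, Skint6, of a family that supports epidermal T cells, and Sorcs3, a sorting receptor. Rbfox1, a splicing regulator of neurons and muscle, is the widest of the sparse genes at 1528 kb (chr16:5884793-7412480). It had no interval in either MTX library, 2 in control library 1 and none in control library 2 or IgG. The 2 intervals held 112 immunoprecipitated and 42 background reads, and the flanks of the gene were as empty, at a relative density of 0.0146. Pde10a and Pcsk5 each had 1 interval in control library 1, Sorcs1 and Skint5 each had 1 in MTX library 2, and Maml2 had 1 in MTX library 2 and 2 in IgG.

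**Figure D2:**
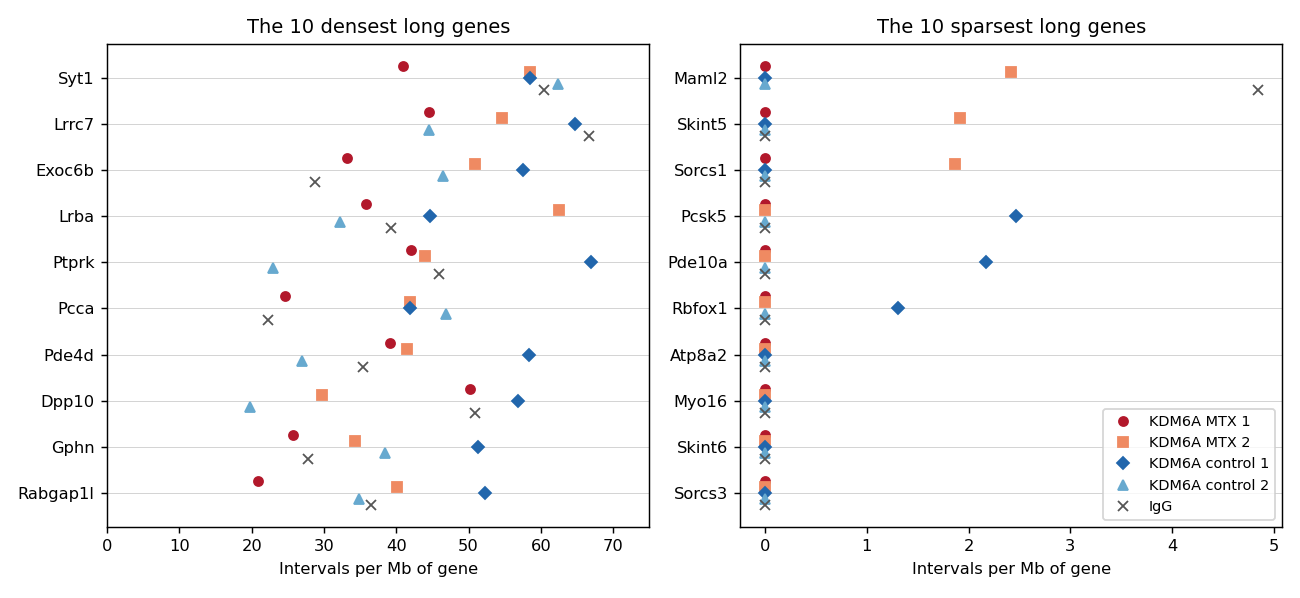
Intervals per Mb of gene in each of the 5 libraries for the 10 densest (left) and 10 sparsest (right) long genes by mean relative density, with different horizontal scales. In Syt1 the libraries span 40.9 to 62.3 per Mb with IgG at 60.4, and in the sparse genes nearly all points are at 0.

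Flanking sequence went with the level inside. Among the 34 genes above 2, the flanks had a median relative density of 1.66, with 31 above 1, and the IgG density was above 1 in 34 of 34, with a median of 3.29. Among the 117 genes under 0.5, the flanks had a median of 0.462, with 5 above 1, and IgG had a median of 0.210, with 7 above 1. Across the 325 genes Spearman's rho of the KDM6A mean was 0.757 with the flanks, 0.791 with IgG and -0.106 with span, as descriptions. Density was higher inside than in the flanks in 157 genes and lower in 167, and the median gene had 0.703 inside and 0.760 in its flanks, a difference that was not tested.

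**Figure D3:**
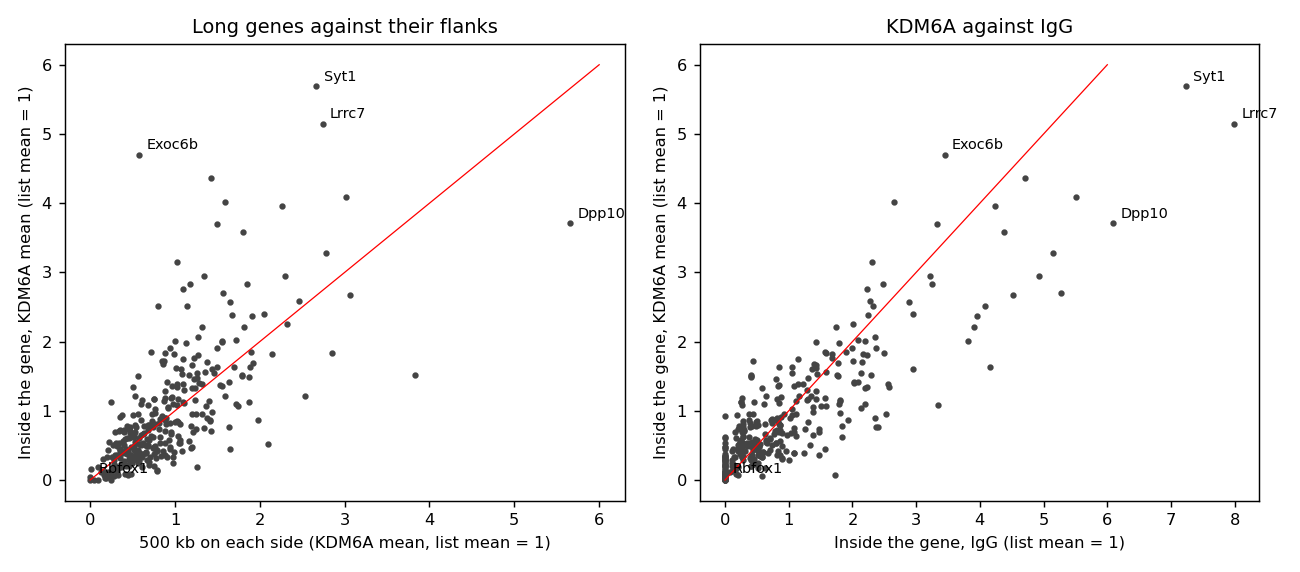
Relative density inside each of the 325 long genes (mean of 4 KDM6A libraries, list mean = 1) against that of its flanks of 500 kb on each side (left) and against the IgG library (right), with 1 point per gene and the line of equality in red. Dpp10 lies under the line against its flanks (3.71 against 5.66) and Exoc6b far above it (4.70 against 0.579).

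Among the 10 widest genes density was mostly low. Ptprd, a receptor phosphatase of synapses and the widest at 2271 kb, had 8 and 8 intervals in MTX, 18 and 2 in control and 11 in IgG, a relative density of 0.335 ± 0.147 (SD, n = 4 KDM6A libraries). Lsamp, an adhesion protein of limbic neurons, had 1 and 5 in MTX, 7 and 1 in control and 3 in IgG over 2197 kb (0.132 ± 0.0857). The density of Cntnap2 was 0.561, of Lrp1b 0.599, of Fhit 0.403, of Nrxn3 0.265, of Csmd1 0.110 and of Ctnna3 0.663. Macrod2, at 1.07, and Dlg2, a postsynaptic scaffold at 1.84 ± 0.501, were the 2 above 1. Dlg2 had 32 and 28 intervals in MTX, 53 and 35 in control and 41 in IgG.

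By role, adhesion and guidance genes were sparse. The 11 long cadherins and catenins, which join cells, had a relative density of 0.496 and 0.578 in MTX libraries 1 and 2, 0.594 and 0.347 in control libraries 1 and 2 and 0.751 in IgG, and 1 of 11, Pcdh9 at 2.00, was above 1. The 22 genes of axon and synapse adhesion had 0.664 and 0.739 in MTX, 0.777 and 0.550 in control and 0.950 in IgG, with 5 of 22 above 1, among them Cntnap5a at 2.68 and Tenm3 at 1.84. The 11 axon guidance genes had 0.662 and 0.638 in MTX, 0.749 and 0.356 in control and 0.868 in IgG. Sema3a, a repulsive ligand, had 2.83, and the Slit receptors Robo1 and Robo2 had 1.34 and 0.480. The median gene of these 3 lists had 0.318, 0.526 and 0.347, under the 0.703 of all long genes.

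The 21 long genes of transcription and RNA-binding regulators had 0.702 and 0.649 in MTX, 0.740 and 0.635 in control and 0.581 in IgG, where IgG was the lowest of the 5. They range from Rbfox1 at 0.0191 to Sox6 at 3.15. Bnc2, a zinc finger protein, had 2.94 and Zbtb20 1.90. The 4 giant LDL receptor and CUB-sushi genes had 0.377 and 0.375 in MTX, 0.731 and 0.182 in control and 0.589 in IgG, and none of the 4 was above 1. Receptor tyrosine kinases and phosphatases, 9 long genes, had 0.734 and 0.708 in MTX, 0.714 and 0.601 in control and 0.764 in IgG, with Ptprk far above the median of 0.459.

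Other lists, summed over their genes, lay near or above the mean of their libraries, in several of them with the median gene below it. The 22 widely expressed genes of cell maintenance had 1.11 and 1.39 in MTX, 1.21 and 1.27 in control and 1.30 in IgG, with 11 of 22 above 1, among them Exoc4, another exocyst subunit, at 2.83. The list of scaffolds and kinases of synapses, 18 long genes, had 1.23 and 1.19 in MTX, 1.16 and 1.45 in control and 1.39 in IgG. That list also holds Syt1, a calcium sensor and neither scaffold nor kinase, which was its densest gene at 5.69. The level of the list without Syt1 was not computed. Its median gene had 0.512, and Syt1, Magi2 at 2.25 and Dlg2 held the most intervals. The 19 ion channel genes had 1.27 and 1.04 in MTX, 1.16 and 1.16 in control and 1.47 in IgG, but their median gene had 0.768 and 6 of 19 were above 1, and Dpp10, Fgf14 at 2.52 and Ryr3 at 2.00 held the most intervals. The 18 genes of common fragile sites had 1.05 and 1.01 in MTX, 1.00 and 0.996 in control and 1.16 in IgG. Their median gene had 0.580 and 7 of 18 were above 1, with the most intervals in Pde4d, Magi2 and Dlg2.

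Extracellular matrix and glycan synthesis, 17 genes, had 0.943 and 1.22 in MTX, 0.948 and 1.01 in control and 1.23 in IgG, with Lama2, a laminin chain, at 2.37. Cytoskeleton and muscle, 16 genes, had 0.947 and 1.12 in MTX, 1.02 and 1.12 in control and 1.15 in IgG. Neurotransmitter receptors, 12 genes, had 0.927 and 0.885 in MTX, 0.880 and 0.887 in control and 1.20 in IgG, with Gabrb1, a GABA receptor subunit, at 2.01. Of the 4 phosphodiesterases, Pde4d and Pde4b (1.39) were above 1, and Pde1c (0.362) and Pde10a (0.0316) below.

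**Figure D4:**
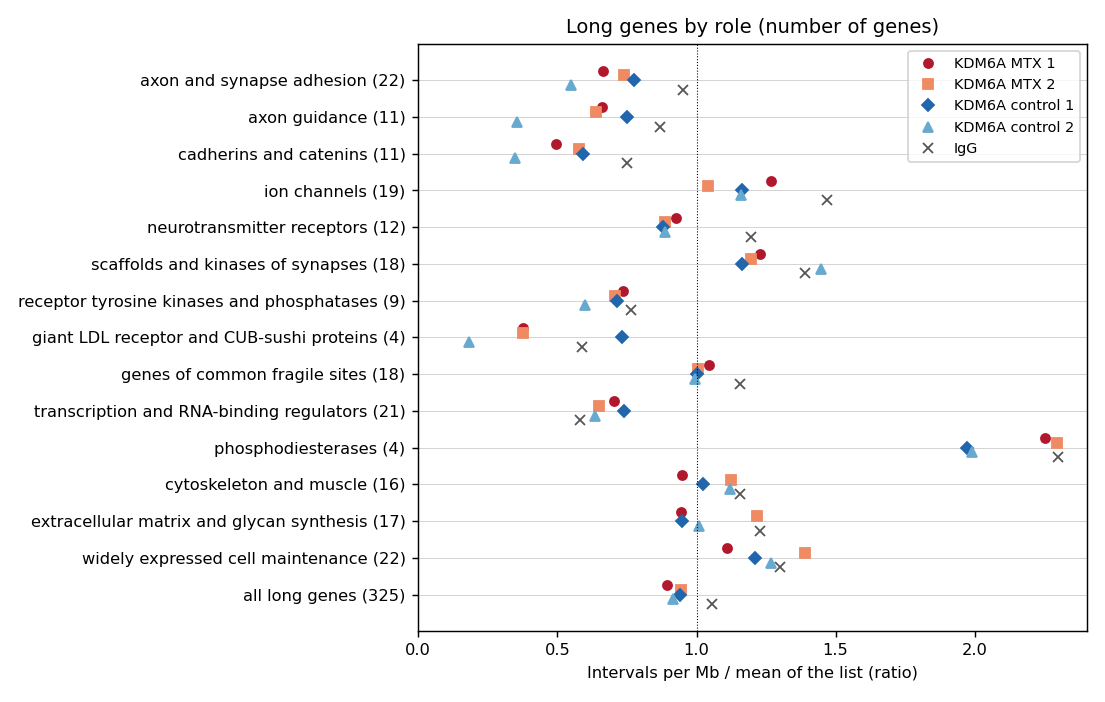
Relative density of intervals (list mean = 1 at the dotted line) summed over the long genes of each role, with the number of genes in parentheses, 1 point per library and no error bars. Cadherins and catenins lie between 0.347 and 0.751, and phosphodiesterases, led by Pde4d, near 2.

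At the threshold, genes were not alike. The 3 just inside were Fam189a1 at 0.303, Dst, a cytoskeletal linker, at 1.98 and Dock4, a guanine nucleotide exchange factor, at 2.02. Just outside, at 396 kb, Ano4 had 1.59 and Adk, adenosine kinase, 4.65, and they are not among the members.

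Place along the gene and chromosome were also examined. In the 246 genes with a known strand, each of 10 equal parts of the gene, counted from the 5′ end, held 8.66% to 11.5% of the intervals in MTX library 1 and 8.38% to 11.4% in MTX library 2. It held 9.13% to 10.8% in control library 1, 8.51% to 11.5% in control library 2 and 7.34% to 11.1% in IgG. An even spread would give 10%. The part at the 5′ end held 9.60% and 9.76% in MTX, 10.4% and 8.69% in control and 11.1% in IgG, so no KDM6A library had its highest share there. By chromosome, the mean relative density of long genes was highest on chromosomes 10 (1.32) and 13 (1.30) and lowest on chromosomes 19 (0.480) and 16 (0.516), and IgG had 1.82, 1.68, 0.396 and 0.672 there.

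When KDM6A intervals that touched or overlapped were merged, long genes held 6992 regions, of which 5584 (79.9%) came from 1 library and 78 (1.12%) from all 4. Over the rest of the autosomes 1.63% of 66561 regions came from all 4. Of the 78, 57 (73.1%, exact 95% interval 61.8% to 82.5%) overlapped an IgG interval, against 73.2% in the rest, and regions of 1 library did so in 11.1%, against 10.2% in the rest. The median width of regions of all 4 was 10600 bp, against 3200 bp for regions of 1 library. They lay in 41 genes, with 7 in Dpp10, 6 each in Pde4d and Syt1 and 4 each in Gphn, Lrrc7 and Zfp993. Both MTX and neither control library held 133 regions (1.90%, against 1.94% in the rest), and both control and neither MTX library held 181 (2.59%, against 2.54% in the rest). Of the pairs across groups, MTX libraries 1 and 2 shared 235 and 287 regions with control library 1 alone, the longest list, and 99 and 122 with control library 2 alone, so the counts within groups lie between those across groups.

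In 47 of the 78 regions every KDM6A interval had a deposited adjusted p under 0.05, and 14 of these 47 did not overlap IgG. These 14 were ordered by the fold of their lowest library, and the first lies in Sema3a (chr5:13264801-13272400). It held 104 immunoprecipitated and 52 background reads in MTX library 1 (fold 2.15) and 174 and 64 in MTX library 2 (3.05), against 69 and 33 in control library 1 (2.77) and 115 and 70 in control library 2 (1.71). The second lies in Lrba (chr3:86469401-86477600), with folds of 2.02 and 1.71 in MTX and 2.39 and 1.65 in control. Dlg2 (chr7:90979601-90988600) held 110 immunoprecipitated and 78 background reads in MTX library 1 and 242 and 154 in MTX library 2, against 80 and 58 in control library 1 and 145 and 101 in control library 2. In each of these 3 regions the folds of the groups overlap. Further regions of this kind lie in Slc4a4, Pde4d, Exoc4, Gphn, Nckap5, Adgrv1, Immp2l, Lama2, A830018L16Rik and Klf12.

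Between MTX and control, no long gene passed the test on its number of intervals. In the edgeR quasi-likelihood test on intervals per gene with Benjamini-Hochberg adjustment, 0 of the 1392 protein-coding genes with 10 or more intervals were called (0%), and 29 (2.08%) had an unadjusted p under 0.05. Of the 325 long genes 254 were in that fit and 71 had too few intervals. None was called, 8 had an unadjusted p under 0.05, and the smallest adjusted p was 0.984. DESeq2 called 0 genes, with 0 at an unadjusted p under 0.05. The median fitted log2 fold was -0.10 in long genes and 0.05 in all genes tested, with 109 long genes above 0 and 145 below, and a median SE of 0.604.

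The values of the 5 lowest and 5 highest fitted folds, predicted symbols aside, show how few intervals stand behind them. Genes of both directions were picked by this fold, so groups that do not overlap among them follow largely from the choice. How many of the other tested genes separate in this way was not counted. Oxr1, which protects against oxidative damage, had 3 and 1 intervals in MTX libraries 1 and 2, against 13 and 8 in control libraries 1 and 2, and 7 in IgG. Both MTX libraries were below both control libraries (log2 fold -2.02 ± 0.702 SE, edgeR unadjusted p = 0.00402, adjusted p = 0.984). Cadps, a priming factor of vesicle release, had 1 and 0 in MTX against 5 and 4 in control, and Astn2, of neuronal migration, 0 and 1 against 7 and 2, both with a fitted log2 fold of -2.61. Csmd1 had 0 and 2 in MTX against 9 and 0 in control and Lrrtm4, a synaptic adhesion protein, 2 and 0 against 9 and 0, so in these 2 genes the groups overlap and control library 1 alone is high.

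In the other direction Trhde, the enzyme that degrades thyrotropin-releasing hormone, had 10 and 7 intervals in MTX, against 4 and 4 in control, and 14 in IgG, the highest of the 5 lists (log2 fold 1.37 ± 0.621 SE, edgeR adjusted p = 0.984). Kcnab1, a potassium channel subunit, had 10 and 11 in MTX against 11 and 1 in control, Fars2, a mitochondrial tRNA synthetase, 6 and 14 against 10 and 2, Dok6, an adaptor of receptor kinases, 2 and 10 against 7 and 0, and Spock3, a proteoglycan, 2 and 6 against 3 and 1. In counts the libraries of the groups overlap in these 4 genes. Relative to the length of each list, Dok6 still overlaps (0.483 and 2.06 in MTX, 0.854 and 0 in control), whereas both MTX libraries lie above both control libraries in Kcnab1 (2.69 and 2.52 against 1.49 and 0.33), Fars2 (1.65 and 3.27 against 1.39 and 0.679) and Spock3 (0.567 and 1.45 against 0.430 and 0.351). These genes were picked for a high fold, and the edgeR adjusted p was 0.984 in each.

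**Figure D5:**
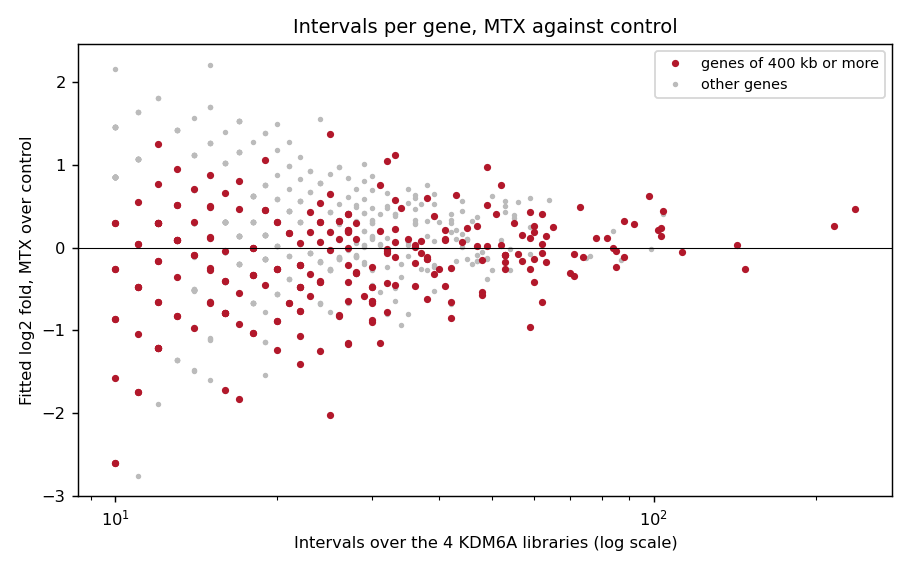
Fitted log2 fold of intervals per gene, MTX over control, against the number of intervals over the 4 KDM6A libraries (log axis), with long genes in red and other tested genes in grey. The spread narrows as intervals increase, and none of the 1392 genes passes an adjusted p of 0.05.

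Read ratios per gene gave the same count. Limma on the log2 ratio of immunoprecipitated to background reads summed per gene (pseudocount 0.5 reads) called 0 of 1927 genes with an interval in all 4 libraries (0%), and 76 (3.94%) had an unadjusted p under 0.05. Among the 250 long genes tested, 3 did, and the smallest adjusted p was 0.949. These 3 were named after their values were seen. Sema6d, a semaphorin, had folds of 2.02 and 1.21 in MTX against 2.63 and 3.02 in control (log2 fold -0.84 ± 0.261 SE). Egfem1 had 1.56 and 1.79 in MTX against 2.33 and 2.28 in control. Ralyl, an RNA-binding protein, had 2.32 and 2.96 in MTX against 1.83 and 1.71 in control (0.57 ± 0.183). In each of the 3 the groups do not overlap, which follows largely from their choice by unadjusted p, and Sema6d had at most 3 intervals in a library. The 3 are 1.2% of the long genes tested, against 3.94% of all genes tested. How many of the other tested genes separate was not counted.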

How the data were processed

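The deposited lists of 4 KDM6A libraries and 1 IgG library were analysed. Per the submitters' processing notes, the authors used Bowtie2 and the mm10 build. Which caller made the intervals is not given here. Each deposited list had 8 columns without a header. Deposited counts are whole reads per interval for the immunoprecipitation and for a background, without normalization. The deposited fold is their ratio times 1 constant per list (1.04 to 1.32), with 0.25 in place of the background in the 6 intervals of control library 1 where it was 0. MTX library 1 and IgG listed 40 identical intervals on these autosomes, and the background counts were equal in 40 of them, so their folds may share a background library. The deposited p-value and adjusted p-value came from the authors' caller. The lists cover only reads within intervals, so the full depth is unknown. Immunoprecipitated reads in all intervals were 3251202 and 4192029 for MTX libraries 1 and 2, 4041853 and 3348266 for control libraries 1 and 2 and 3513697 for IgG. Whole lists held 24177, 28976, 44838, 21228 and 22843 intervals in that order.

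All intervals were kept and placed by midpoint. Coordinates count from 1. Genes and promoter windows came from RefSeq (GRCm38.p6), whose gene table gives spans without exons, so exons, introns and UTRs were not told apart. Overlap needed 1 bp. Comparisons over libraries used exact sign-flip and permutation tests. Comparisons per gene used edgeR 4.0.16 with TMM and limma 3.58.1 in R 4.3.3, fitted on all protein-coding genes of these autosomes, with DESeq2 1.42.0 as an alternative. They were tested on simulated data. The SE given with an edgeR fold is an approximation, the absolute log2 fold divided by the square root of the F statistic of its test. Shares have exact 95% intervals.

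Members and role lists were chosen with earlier results of these data known. The named genes are the 10 widest, 10 densest and 10 sparsest long genes, the 5 highest and 5 lowest fitted folds, up to 3 genes with the most intervals in each of 14 role lists, and the 3 on either side of the span threshold, without predicted symbols. Other genes named were chosen after their values were seen. A few genes within this rule are not reported here. Alternatives were other span thresholds, subsets of intervals, scalings and filters, and leaving out each library.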

Additional observations from a re-analysis of the deposited data

How the results depend on the processing

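The density ratio of long genes to the rest (0.916) was 0.982 with long genes from 300 kb and 0.824 from 800 kb. It was 0.999 with intervals at a deposited adjusted p under 0.05, 0.863 with chromosome 11 included and 0.687 against other genes alone. With lists of equal length the mean was reversed, at 1.02 ± 0.113 (SD, n = 4 KDM6A libraries), which is within its SD of 1. Leaving out 1 library gave 0.908 to 0.928. The ratio of the IgG library (1.06) was 1.08 from 300 kb, 1.02 from 800 kb and 1.16 at an adjusted p under 0.05. It was 1.11 with lists of equal length and 0.985 with chromosome 11 included. The causes were not tested. The log2 difference of MTX minus control (-0.02) changed sign at 800 kb (0.0617), at an adjusted p under 0.05 (0.0128) and without intervals that overlap IgG (0.00247), and it ran from -0.0630 to 0.0295 when 1 library was left out (0.0295 without MTX library 1, 0.00456 without control library 1). The log2 read ratio of members minus the rest (0.16) stayed above 0 in every alternative run: 0.12 from 300 kb, 0.23 from 800 kb, 0.11 at an adjusted p under 0.05, 0.12 with lists of equal length, 0.12 without intervals that overlap IgG, 0.13 as a median per interval, and 0.16 to 0.17 without 1 library.

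The edgeR count of 0 was also 0 with DESeq2, without TMM scaling, without the filter, at an adjusted p under 0.05 and without any 1 library. The exception was a fit with reads in place of intervals, which gave 2 calls, neither in a long gene; there the minimum of 10 applied to reads, so 8990 genes were tested in place of 1392. Limma's count was 0 to 1 when 1 library was left out, with 1 call without MTX library 1 and 1 without control library 2, neither in a long gene. In these fits 1 group has 1 library, which is assumed to vary like the other group. Replicate numbers are shared between groups. The deviations of same-numbered libraries correlated at 0.123 over 1392 genes, in only 2 pairs, so they share a number and nothing more is known of a pairing. With the replicate block, edgeR called 0 genes, with 23 at an unadjusted p under 0.05, and limma called 0, with 76. The 10 named fitted folds kept their sign in all 87 values under alternatives, but some genes dropped out when 1 library was left out, and sizes moved: Oxr1 -3.21 without MTX library 1, Cadps -1.70 and Lrrtm4 -0.74 without MTX library 2, Csmd1 -1.05 and Trhde 0.82 without MTX library 1, Fars2 0.40 without MTX library 2, and Trhde 0.74, Kcnab1 2.93, Dok6 5.51 and Fars2 1.93 without control library 1, Kcnab1 0.64 and Dok6 0.48 without control library 2. Of 60 alternative relative densities of named genes 55 moved by no more than the SD over libraries. These 55 include values that could hardly move. The 4 genes without any interval stay at 0 in every subset, and the other sparse genes have an SD above their mean. The 5 that moved further were Syt1 (2.57), Lrrc7 (2.69), Pde4d (2.84), Ptprk (3.10) and Dpp10 (2.23), each without intervals that overlap IgG. With 2 libraries a group, and an approximate median SE of 0.604 on the log2 scale in edgeR, only large differences per gene could be called.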

Other observations

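Zfp993, a zinc finger gene on chromosome 4 (chr4:146512849-146991471), stood apart from the other long genes, and was chosen after its values were seen. It had 7 intervals in each of the 5 lists, and 1 of these KDM6A intervals, in control library 1, did not overlap IgG. They held 3337 and 3257 immunoprecipitated reads in MTX libraries 1 and 2, 2919 and 3529 in control libraries 1 and 2 and 3588 in IgG. Background reads were 3492 and 3484 in MTX, 3464 and 3542 in control and 3492 in IgG. The folds were therefore only 1.03 and 1.05 in MTX, 1.11 and 1.04 in control and 1.07 in IgG. The interval with the most reads of any member lay there in every list: in control library 2 it held 2085 immunoprecipitated and 1981 background reads over 29600 bp. At chr4:146739001-146744600 MTX library 1 and IgG listed the same interval, with 516 and 559 immunoprecipitated reads and 578 background reads in both. Zinc finger genes of this kind belong to families of near-identical copies, and how the authors' alignment split reads among copies is uncertain.

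The highest folds of members were single, narrow intervals. In control library 1 the top interval lay in Slc4a4, a bicarbonate cotransporter (chr5:89109401-89109600), with 25 immunoprecipitated and 0 background reads over 200 bp. Its deposited fold of 132 was computed with 0.25 in place of the background of 0. The next lay in Csmd1, with 26 reads against 1 (deposited fold 34.4), and in Dpp10, with 29 against 2 (19.2). Outside control library 1 the top interval of each list had more reads: 60 against 12 in Dlg2 in MTX library 1 (fold 5.36), 54 against 4 in Cpq in MTX library 2 (15.1), 68 against 8 in A830018L16Rik in control library 2 (8.86) and 68 against 8 in Tbc1d5 in IgG (8.82). No 2 libraries had their top interval in the same gene.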
